A study of Mus musculus with 16 samples.

Results

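Blood pressure peptides act on vessels, kidney and fat, and 9 genes of 3 such systems other than endothelin are described here in bone and fat of endothelin receptor mutant mice. They are Agt, Ace, Agtr1a and Agtrap of the angiotensin system, Npr1 and Npr2 of the natriuretic peptide system, and Adm, Ramp2 and Calcrl of the adrenomedullin system. The genes were taken by their platform symbol, which gave 10 of 25697 probes and 9 of 16593 named genes on the array, with 2 probes for Ace and 1 for each other gene. RNA came from femur and from white adipose tissue, both taken from the same 8 males, all of the inbred strain C3HeB/FeJ and aged 17 weeks. A set of 4 mice was wild type, and 4 carried the Ednra mutation of AEA001, a line derived with the mutagen ENU and named by its submitters as an osteoporosis model. Ednra encodes endothelin receptor type A. Each tissue and genotype was measured on 4 Illumina bead arrays, 16 in all. The mutation is in the germ line of 1 mutagenised line, so other induced changes carried by that line cannot be told apart from it. The labels do not say whether the mutants had 1 or both alleles changed. The 8 mice carried 7 animal identifiers, because wild type replicate 3 and AEA001 replicate 4 were given the same one. Ednra itself is not analysed here.

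Angiotensinogen, the product of Agt, is a secreted precursor made mainly by liver and also by fat cells. Renin cuts it to an inactive peptide, which angiotensin-converting enzyme on the endothelial surface turns into the vasoconstrictor angiotensin II, and the type 1 receptor carries its signal. Natriuretic peptides oppose this system through receptors that are themselves guanylate cyclases, of which the one for C-type natriuretic peptide is known for driving growth of long bones. Adrenomedullin is a vasodilator whose receptor is a pair of proteins, the receptor encoded by Calcrl and the accessory protein encoded by Ramp2.

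Promoter sequences are given for Agt, Ace and Adm, which combine large differences between fat and bone with the largest differences between genotypes in fat, Ace being shown at both of its listed starts. RefSeq windows on GRCm38.p6, each running from 250 bases before a transcription start to 50 bases from it, were listed for 7 of the 9 genes. Capitals mark the letters TATAA, the core of a TATA box, which were searched on the gene's strand between positions -50 and -11. Windows lay at chr8:124569657-124569956 on the minus strand for Agt, at chr11:105967698-105967997 and chr11:105974939-105975238 on the plus strand for Ace, and at chr7:110627407-110627706 on the plus strand for Adm.
Agt: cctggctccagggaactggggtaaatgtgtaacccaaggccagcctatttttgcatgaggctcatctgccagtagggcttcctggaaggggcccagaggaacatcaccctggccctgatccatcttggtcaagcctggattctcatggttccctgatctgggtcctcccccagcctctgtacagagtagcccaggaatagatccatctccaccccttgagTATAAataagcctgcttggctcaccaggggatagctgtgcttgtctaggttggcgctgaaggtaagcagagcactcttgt
Ace, outer start: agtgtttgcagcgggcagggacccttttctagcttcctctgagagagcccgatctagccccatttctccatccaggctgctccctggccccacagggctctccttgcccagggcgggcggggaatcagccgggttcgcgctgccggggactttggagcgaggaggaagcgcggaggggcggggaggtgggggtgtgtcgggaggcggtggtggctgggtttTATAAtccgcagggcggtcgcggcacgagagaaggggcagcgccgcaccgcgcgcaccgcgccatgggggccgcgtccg
Ace, inner start: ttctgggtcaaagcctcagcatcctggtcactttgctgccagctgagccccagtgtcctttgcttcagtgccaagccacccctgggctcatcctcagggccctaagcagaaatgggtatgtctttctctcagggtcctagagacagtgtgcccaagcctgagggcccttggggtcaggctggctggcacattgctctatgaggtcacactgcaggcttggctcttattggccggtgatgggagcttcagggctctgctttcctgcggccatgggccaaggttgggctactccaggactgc
Adm: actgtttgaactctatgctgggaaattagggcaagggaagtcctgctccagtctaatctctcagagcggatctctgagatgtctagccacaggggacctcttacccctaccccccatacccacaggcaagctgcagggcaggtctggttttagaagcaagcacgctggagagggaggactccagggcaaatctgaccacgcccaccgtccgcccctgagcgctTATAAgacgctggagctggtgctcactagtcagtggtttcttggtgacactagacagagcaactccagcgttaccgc
The motif began at position -30 in Agt, -29 at the outer start of Ace and -27 in Adm. It was found in 4.49% of 32851 windows searched the same way, and was not found at the inner start of Ace or in the windows of Agtrap, Npr1, Npr2 and Calcrl. The starts of Ace lie 7241 bases apart, and the inner start is known as that of the shorter form of the enzyme made in testis. Agt and Adm share the motif but not the base composition around it, with 1 and 9 CG pairs in 300 bases. The outer window of Ace holds 29 CG pairs and the inner one 2, against a median of 7 over all windows.

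Values are the authors' normalized probe intensities on a linear scale, in which 25.3% to 25.4% of the probes of each array were below 0. An intensity of 16 was taken as the floor below which a level was not read, and 14204 to 14227 probes per array exceeded it. Differences are on the log2 scale after values under the floor were raised to it, with the limma SE, and folds of dim probes are therefore understated. Fat and bone carried the markers of their tissue. Summed over 6 adipocyte genes, white adipose arrays reached 62280 to 72874 and femur arrays 1869 to 3302, with Retn at or below 16 on all 8 femur arrays. Summed over 6 genes of osteoblasts and bone matrix, femur arrays reached 27142 to 36966 and white adipose arrays at most 5012. Femur arrays also carried marrow and muscle, with sums of 114870 to 138419 over 6 granulocyte genes and of 46869 to 59536 over 4 skeletal muscle genes. The white adipose array of AEA001 replicate 2 stood apart, with a granulocyte sum of 17081 against 490.2 to 1553 on the other 7. Fewer cells of a type and less RNA per cell cannot be told apart in these bulk tissues.

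Among the members tested, Agt had the widest measured gap between the tissues, while the gaps of genes at the floor in femur, such as Ace, are lower bounds. Its intensity in wild-type femur was 64.2, 58.5, 88.8 and 94.5 in replicates 1 to 4, and in AEA001 femur it was 63.4, 66.0, 85.3 and 68.8. In white adipose tissue it was 492, 629.9, 874 and 964 in the wild type, and 1062, 887, 1085 and 1106 in the mutants. Every fat array lay far above every femur array. Femur minus fat was -3.25 ± 0.20 on the log2 scale in the wild type (limma adjusted p = 5.89e-10), a 9.54-fold difference. In the mutants it was -3.87 ± 0.20 (limma adjusted p = 7.33e-11), a 14.6-fold difference. Between genotypes in fat, mutants were higher by 0.53 ± 0.21 (limma adjusted p = 0.164, exact permutation p = 0.0571), and the ranges overlapped, with wild type replicate 4 above the lowest mutant. The 3 other mutant arrays exceeded all wild-type arrays. Without wild type replicate 1, the lowest of its group, the difference was 0.35 (limma adjusted p = 0.315). In femur the difference was -0.09 ± 0.18 (limma adjusted p = 0.830), with overlapping ranges.

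Ace, the converting enzyme, was read in fat only. On the first probe (ILMN_2613682) the 4 wild-type fat arrays had intensities of 74.3, 56.9, 42.5 and 73.1, and the 4 mutant fat arrays 33.0, 30.9, 20.7 and 20.9. On the second probe (ILMN_2613683) the values were 65.8, 47.6, 44.6 and 63.5 in the wild type and 35.3, 30.0, 24.7 and 12.8 in the mutants. On both probes the lowest wild-type array lay above the highest mutant array, so the genotypes did not overlap. This was so for 15.7% of all probes in fat. All 8 femur arrays were at or below 0.780 on the first probe and below 0 on the second. In the wild type the fat level was therefore at least 3.76-fold above femur on the first probe (limma adjusted p = 6.93e-08) and at least 3.41-fold on the second (limma adjusted p = 4.48e-07). In the mutants it was at least 1.61-fold above on the first probe (limma adjusted p = 0.00236). The spread behind these p-values is lowered by the 8 femur arrays, which all sit at the floor and cannot vary. That mutant difference was not called when the floor was raised to 32, where it was -0.01.

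In fat, the mutants differed from the wild type by -1.23 ± 0.23 on the first Ace probe, with a 95% interval of -1.75 to -0.70, and by -1.10 ± 0.25 on the second, with an interval of -1.67 to -0.53. Mutant levels were 2.34-fold and 2.15-fold lower. Neither passed the threshold over all probes, with limma adjusted p-values of 0.111 and 0.112. The exact permutation p was 0.0286 for each probe, the smallest that 4 arrays against 4 can give. Any probe whose genotypes do not overlap reaches it, and 15.7% of all probes in fat did not overlap. Of all probes tested in fat, 0.474% had a p as small as that of the first probe and 1.67% one as small as that of the second. Without the array of AEA001 replicate 2 the first probe differed by -1.31 (limma adjusted p = 0.169), and without both mice that share an identifier by -1.29 (limma adjusted p = 0.132). In 1 fit of all 16 arrays the limma adjusted p was 0.00623, but that fit takes its spread partly from the 8 femur arrays, which all sit at the floor and cannot vary, so this p is too small.

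Values of other cell types were set beside that difference, and their part in it was not tested. Endothelium, a main source of the enzyme, had a marker sum over 9 genes of 18081 to 21830 in wild-type fat and 20848 to 22409 in mutant fat, all 9 genes being above the floor. None of these 9 passed the limma threshold between genotypes in fat, where 2 were lower and 0 higher at an unadjusted p under 0.05. The sum over 8 smooth muscle and pericyte genes was 21094 to 26079 in wild-type fat and 17549 to 23125 in mutant fat, with Cnn1 at or below 16 on all arrays. The sum over 4 genes of macrophages, which can also make the enzyme, was 5744 to 7760 in wild-type fat and 4280 to 5367 in mutant fat, and these did not overlap. Of these 4 genes, 0 passed the limma threshold and 2 were lower at an unadjusted p under 0.05. Among all probes in fat, 26.1% reached that unadjusted level and 15.7% did not overlap between genotypes. The sum over 3 genes of lymphatic endothelium was 486 to 555 in wild-type fat and 297 to 425 in mutant fat, again without overlap, with Prox1 at or below 16 on all arrays. Of these, Lyve1 differed by -0.50 ± 0.13 (limma adjusted p = 0.112) and Flt4 by -0.25 ± 0.14 (limma adjusted p = 0.279). Of 4 genes of testis and epididymis on the array, the epididymal genes Lcn5 and Lcn8 were at or below 16 on all 8 fat arrays and Tnp1 was at 6.82 to 21.2. Prm1, a sperm gene, was at -5.23, 2.92, 148 and 27.7 in wild-type fat and at -2.43, 9.16, 69.3 and 83.6 in mutant fat. Among wild-type fat arrays, replicate 3 had the most Prm1 and the least Ace on both probes. Replicate 4 had the next most Prm1, with an Ace intensity of 73.1 on the first probe. Among mutant fat arrays, replicates 3 and 4 had the most Prm1 and the least Ace on both probes. The part of sperm or testis tissue in the Ace values was not tested.

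**Figure D1:**
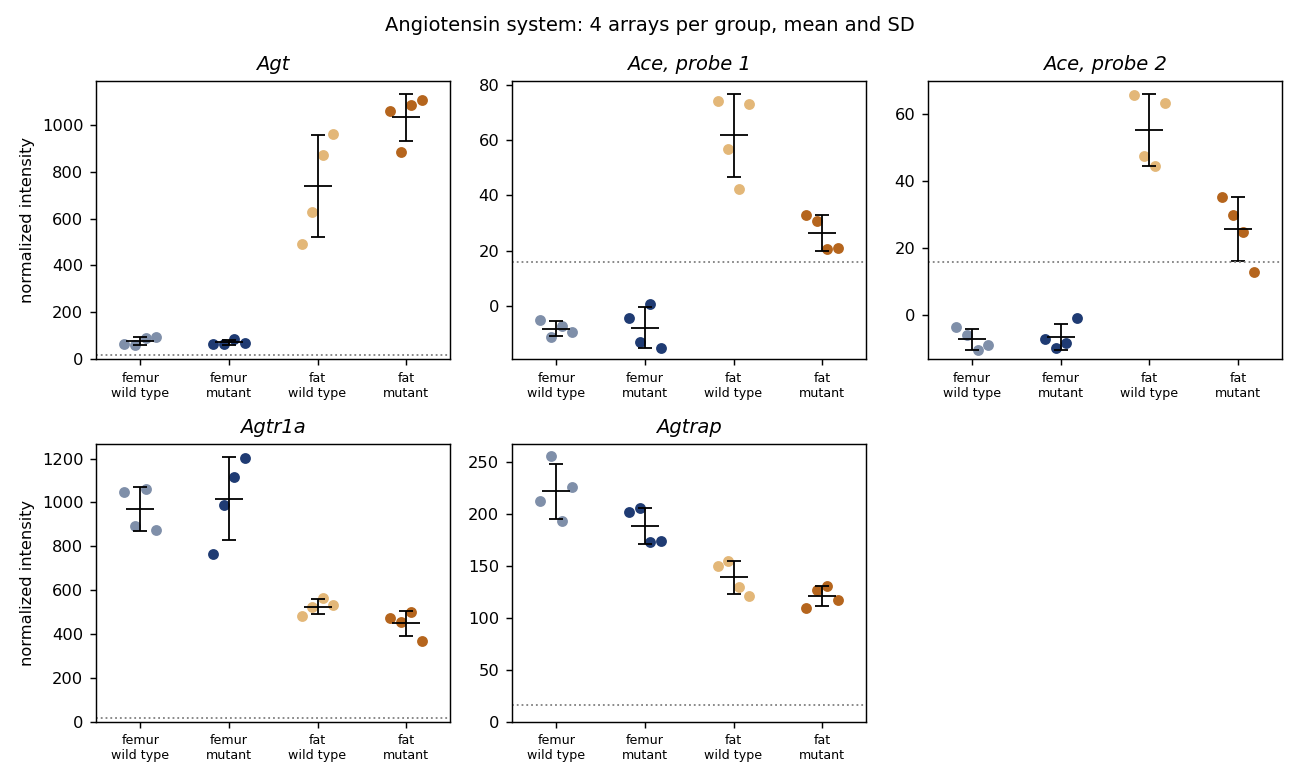
Normalized intensity (linear scale, a separate axis for each probe) of Agt, both Ace probes, Agtr1a and Agtrap on each of 4 arrays per group, in replicate order, with the mean and SD as black bars and the floor of 16 as a dotted line. Agt and Ace are higher in fat, Agtr1a and Agtrap in femur, and the mutant fat arrays of Ace lie below all wild-type fat arrays.

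Agtr1a and Agtrap were the members with higher signal in bone. Agtr1a encodes the type 1 angiotensin II receptor, and Agtrap a membrane protein that binds this receptor and promotes its uptake into the cell. Agtr1a stood at 1049, 894, 1063 and 873 in wild-type femur and at 763, 989, 1114 and 1203 in mutant femur. In fat it stood at 480.3, 521, 565 and 532 in the wild type and at 473, 454, 501 and 367 in the mutants. No fat array reached the lowest femur array. Femur exceeded fat by 0.88 ± 0.14 in the wild type (limma adjusted p = 2.62e-05) and by 1.17 ± 0.14 in the mutants (limma adjusted p = 1.22e-06). Genotypes overlapped in both tissues, at 0.05 ± 0.15 in femur (limma adjusted p = 0.887) and -0.23 ± 0.11 in fat (limma adjusted p = 0.231, exact permutation p = 0.0571).

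Agtrap and Npr1 had the narrowest gaps between tissues in the wild type among the 8 genes tested. Its femur intensities were 212, 255, 193 and 226 in the wild type and 201.4, 206, 173 and 174 in the mutants. In fat they were 149.98, 154, 129.8 and 121 in the wild type and 109.7, 127, 130.4 and 117 in the mutants. The tissues did not overlap in either genotype, whereas the genotypes overlapped in both tissues. Femur was higher by 0.67 ± 0.11 in the wild type (limma adjusted p = 4.57e-05) and by 0.64 ± 0.11 in the mutants (limma adjusted p = 7.64e-05). Mutants differed from the wild type by -0.23 ± 0.11 in femur (limma adjusted p = 0.344) and by -0.20 ± 0.11 in fat (limma adjusted p = 0.277).

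The natriuretic peptide receptors were both higher in fat. Npr1, the receptor of atrial and B-type peptides, was dim throughout. Its femur intensities were 16.8, 33.9, 25.8 and 31.9 in the wild type and 14.6, 17.1, 7.47 and 19.8 in the mutants. In fat they were 51.3, 51.8, 34.3 and 37.2 in the wild type and 48.2, 48.8, 46.7 and 43.4 in the mutants. Wild-type femur and fat were separated by less than 1 intensity unit at their nearest arrays, mutant femur and fat by a wide margin. Femur minus fat was -0.72 ± 0.19 in the wild type (limma adjusted p = 0.00343) and -1.45 ± 0.19 in the mutants (limma adjusted p = 5.20e-06). The mutant value is understated, because 2 of the 4 mutant femur arrays were at the floor. In femur, 3 of 4 wild-type arrays exceeded every mutant array, while replicate 1 lay within the mutant range. That difference was -0.61 ± 0.21 (limma adjusted p = 0.222, exact permutation p = 0.0857), with 2 of the 4 mutant arrays at the floor, so its size is a lower bound. In fat the difference was 0.12 ± 0.15 (limma adjusted p = 0.609).

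Npr2 encodes the receptor of C-type natriuretic peptide, which acts in the growth plate. Its femur intensities were 288, 357, 266 and 295 in the wild type and 292, 337, 289.9 and 251.4 in the mutants. Its fat intensities were 496, 449, 657 and 639 in the wild type and 599, 647, 916 and 968 in the mutants. All fat arrays exceeded all femur arrays. Femur minus fat was -0.88 ± 0.17 in the wild type (limma adjusted p = 0.000235) and -1.40 ± 0.17 in the mutants (limma adjusted p = 2.03e-06). Mutant fat was higher by 0.47 ± 0.20 (limma adjusted p = 0.180, exact permutation p = 0.143), with replicates 3 and 4 above the wild-type range and replicates 1 and 2 within it. In wild-type fat too, replicates 3 and 4 were the highest. With replicate number as a term in the fit, the limma adjusted p was 0.0757 and did not pass. In femur the genotypes differed by -0.04 ± 0.12 (limma adjusted p = 0.889).

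Adm, the precursor of adrenomedullin, was near the floor in bone and low in fat. Its femur intensities were 17.9, 16.8, 4.47 and 2.03 in the wild type and 17.9, 6.54, 11.8 and 11.5 in the mutants, with 3 of 8 arrays above 16. In fat they were 53.4, 53.4, 41.5 and 46.8 in the wild type and 42.2, 30.8, 37.2 and 30.1 in the mutants. Fat exceeded femur on every array. The wild-type fat level was at least 2.91-fold above femur (limma adjusted p = 5.30e-09), and the mutant one at least 2.11-fold (limma adjusted p = 3.94e-07). The spread behind both p-values is lowered by femur arrays at the floor. With the floor at 32 the mutant difference was -0.15 and was not called (limma adjusted p = 0.153). Mutant fat differed from wild-type fat by -0.48 ± 0.14 (limma adjusted p = 0.115, exact permutation p = 0.0571), and the highest mutant array lay just above the lowest wild-type array. In 1 fit of all 16 arrays the limma adjusted p was 0.0318, from a spread lowered by the 5 femur arrays that sit at the floor. Adm was not tested between genotypes in femur.

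Ramp2, the accessory protein that gives the Calcrl receptor its affinity for adrenomedullin, was bright in both tissues. Its intensities were 994, 1076, 1095 and 1206 in wild-type femur and 1544, 1102, 1015 and 1269 in mutant femur. In fat they were 2920.4, 3314, 3533 and 3117 in the wild type and 2791, 3082, 3175 and 3311 in the mutants. Fat lay above femur on all arrays, and genotypes overlapped in both tissues. Femur minus fat was -1.56 ± 0.12 in the wild type (limma adjusted p = 7.79e-09) and -1.34 ± 0.12 in the mutants (limma adjusted p = 4.90e-08). The genotype differences were 0.16 ± 0.14 in femur (limma adjusted p = 0.590) and -0.06 ± 0.09 in fat, with a 95% interval of -0.27 to 0.16 (limma adjusted p = 0.704). Calcrl was above the floor on 1 of 16 arrays, at 21.4 in femur of wild type replicate 4, and was tested in no comparison. Endothelial markers moved with the tissue difference of Ramp2, an endothelial gene in many organs. Their sum over 9 genes was 7471 to 9067 on femur arrays and 18081 to 22409 on fat arrays. Sums of smooth muscle and pericyte, lymphatic endothelium and adipocyte genes were also higher on all fat arrays. Those of bone, granulocyte, erythroid, lymphocyte and skeletal muscle genes were higher on all femur arrays. The part of any cell type in the Ramp2 difference was not tested.

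**Figure D2:**
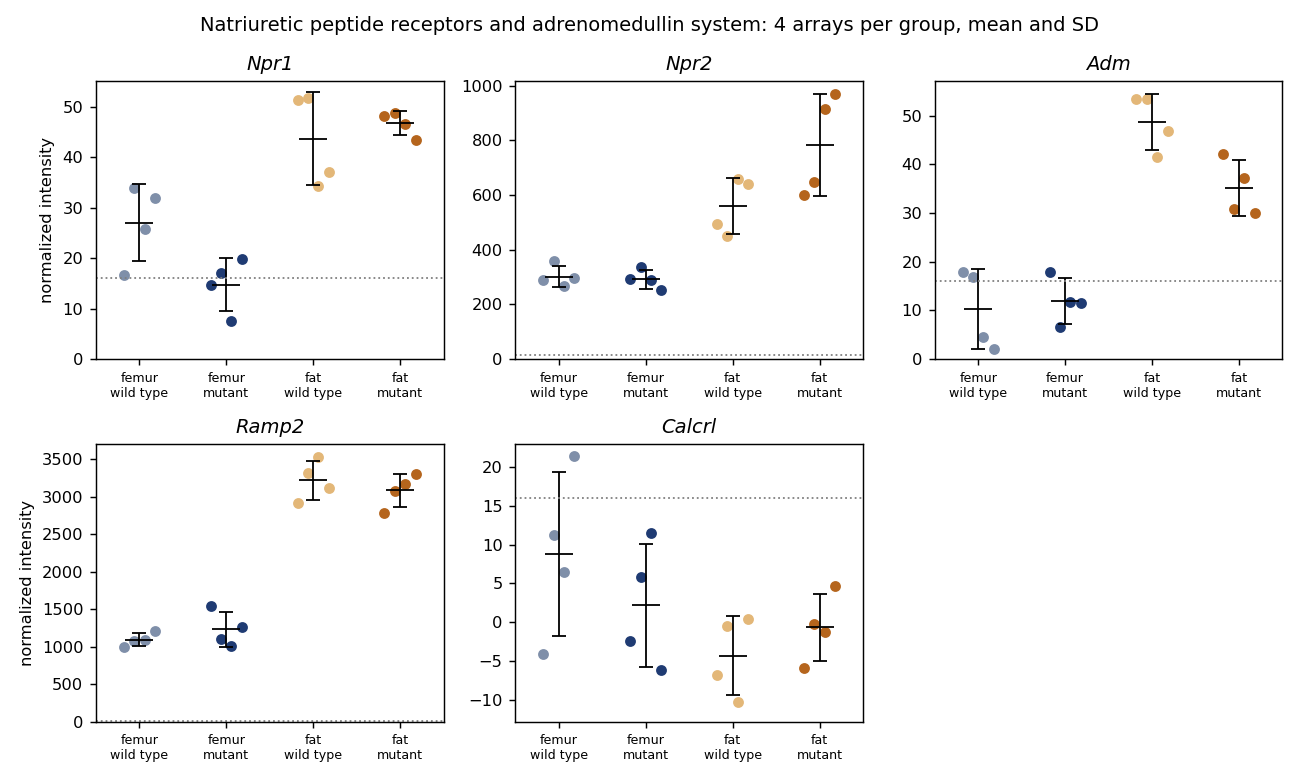
Normalized intensity (linear scale, a separate axis for each probe) of Npr1, Npr2, Adm, Ramp2 and Calcrl on each of 4 arrays per group, in replicate order, with the mean and SD as black bars and the floor of 16 as a dotted line. The first 4 genes are higher in fat, and Calcrl exceeds the floor on 1 array.

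Set together, all 8 genes tested passed the limma threshold between tissues in both genotypes, with 2 higher in femur and 6 higher in fat. Among all probes, 72.3% passed in the wild type (33.6% higher and 38.7% lower in femur) and 71.4% in the mutants (33.2% higher and 38.3% lower), so passing this test was common. The arrays of the tissues did not overlap for these 8 genes, apart from the second Ace probe in the mutants, and this was so for 64.4% of all probes in the wild type and 66.9% in the mutants. Over the members' 9 probes tested, the median size of difference was 1.54 in the wild type and 1.17 in the mutants. Over all probes it was 0.75 and 0.73. The members' medians count Ace by both of its probes, so they are not medians over genes. The arrays were normalized over both tissues to 1 distribution of intensities, so each tissue difference is relative to the other transcripts on the array.

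**Figure D3:**
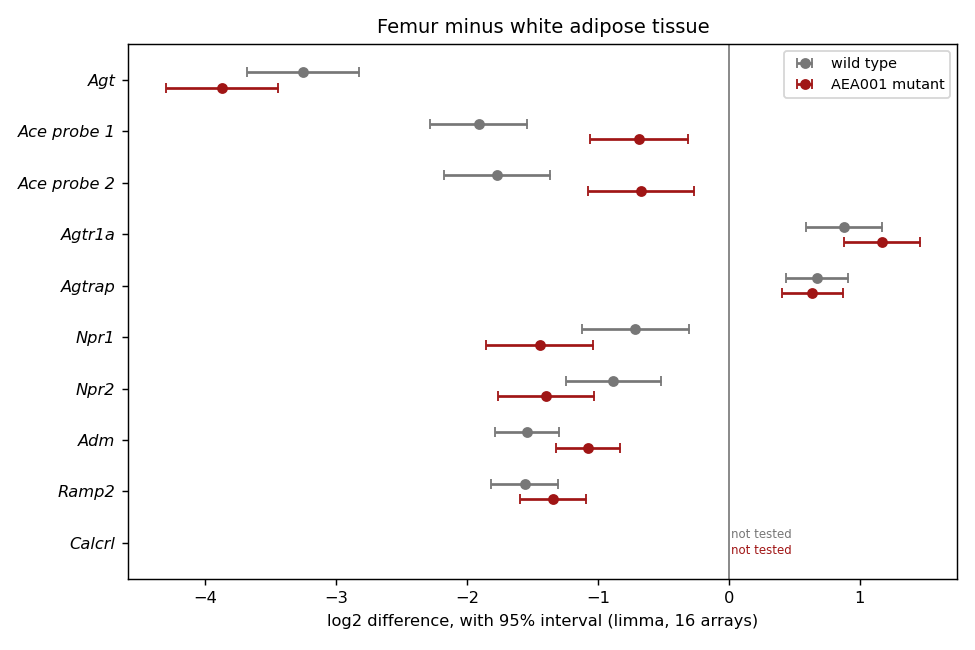
Log2 difference of femur from white adipose tissue for each probe, in wild type (grey) and AEA001 mutants (red), with 95% intervals from 1 limma fit of 16 arrays. Agtr1a and Agtrap lie to the right of 0, Calcrl was not tested, and the other probes lie to the left. Of these, Ace and Adm in both genotypes and Npr1 in the mutants are understated, because their femur values are at or near the floor.

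Between genotypes in femur, 0 of the 6 genes tested passed the limma threshold, where 0.00700% of all probes did. Npr1 was lower at an unadjusted p under 0.05, a level reached by 16.9% of all probes, and 0 of the 6 genes separated the genotypes without overlap, which 9.37% of all probes did. The median difference was -0.07 for these genes and -0.02 over all probes. In fat, 0 of the 8 genes tested passed, against 0.0139% of all probes. At an unadjusted p under 0.05, which 26.1% of all probes reached, Agt and Npr2 were higher in mutants and Ace and Adm lower. Ace was the 1 gene whose genotypes did not overlap, as was so for 15.7% of all probes, and 7.74% of all probes were lower in mutants without overlap. The median size of difference in fat was 0.47 for the members' 9 probes and 0.20 over all probes. Both Ace probes, the largest in size, count in the members' median, which is therefore higher than with 1 probe per gene.

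**Figure D4:**
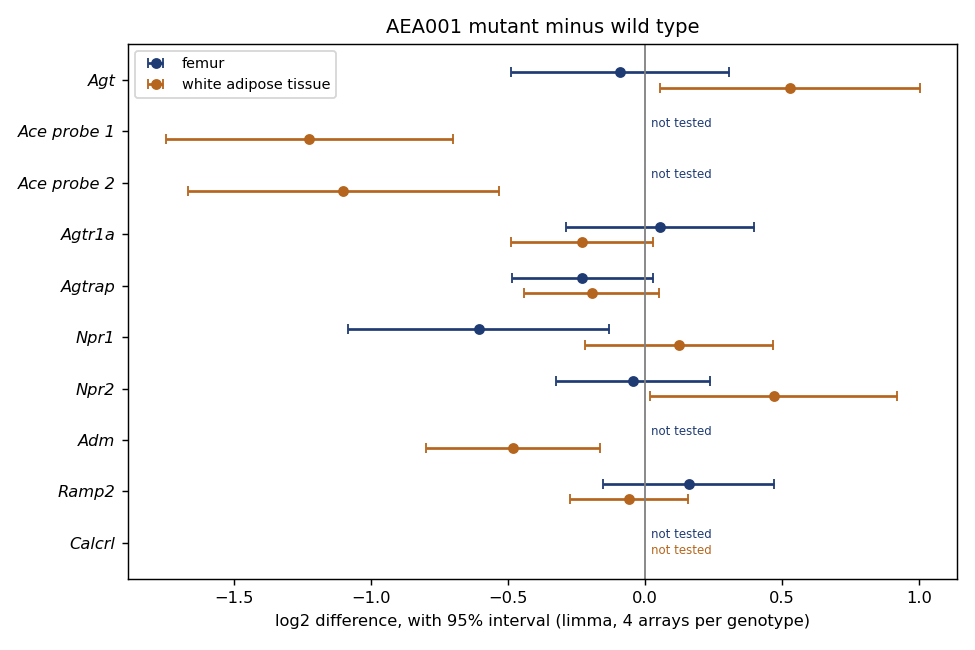
Log2 difference of AEA001 mutants from the wild type for each probe in femur (blue) and white adipose tissue (brown), with 95% intervals from limma fits of 8 arrays. Both Ace probes lie lowest in fat, at -1.23 and -1.10, and Ace, Adm and Calcrl were not tested in femur, nor Calcrl in fat.

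Whether a genotype difference itself differed between the tissues was tested in the fit of all 16 arrays, in which 7.37% of all probes passed, 4.08% with a higher value in femur. Ace was the 1 gene of 8 to pass, its femur minus fat value being 1.23 ± 0.25 on the first probe (limma adjusted p = 0.0237) and 1.10 ± 0.27 on the second (limma adjusted p = 0.0313). Because every femur array of Ace was at the floor, no femur difference was measured. The value is the fat difference with its sign turned, tested against a spread that includes femur arrays with none. Leaving out fat AEA001 replicate 4, femur wild type replicate 1 or femur wild type replicate 2 raised the adjusted p of the first probe to 0.0510, 0.0507 and 0.0530. The values of Adm (0.46 ± 0.16, limma adjusted p = 0.0821), Npr1 (-0.73 ± 0.27, limma adjusted p = 0.100), Agt (-0.62 ± 0.29, limma adjusted p = 0.172) and Npr2 (-0.51 ± 0.24, limma adjusted p = 0.179) did not pass. Adm passed without fat wild type replicate 3 (limma adjusted p = 0.0415) or fat AEA001 replicate 1 (limma adjusted p = 0.0452). Femur arrays of Adm too were at or near the floor, so its value is close to the fat difference of -0.48 with its sign turned. The spread it was tested against is lowered by those arrays.

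Further genes of the 3 systems gave 0 limma calls between genotypes within a tissue. Of 22 further renin-angiotensin genes, 18 were on the array and 14 were tested in femur, where 9 were higher in mutants, 5 lower and 0 called by limma, with 4 higher at an unadjusted p under 0.05. In fat 13 were tested, 3 higher, 10 lower and 0 called by limma, with 5 lower at an unadjusted p under 0.05. Over all probes, that unadjusted level was reached by 16.9% in femur and 26.1% in fat. The medians were 0.17 in femur and -0.21 in fat, against -0.02 and 0.02 over all probes. Atp6ap2, the renin and prorenin receptor, was at 4617, 4488, 5193 and 4947 in wild-type femur and at 5657, 5564, 5539 and 5603 in mutant femur on its brightest probe. In fat Atp6ap2 was at 4265, 4306, 3671 and 3514 in the wild type and at 3200.3, 3151, 3200.3 and 3641 in the mutants. Mutants were thus above all wild-type arrays in femur, where 9.37% of all probes did not overlap between genotypes. In fat 3 of 4 mutants were below all wild-type arrays. The Atp6ap2 differences were 0.22 ± 0.08 (limma adjusted p = 0.243) and -0.25 ± 0.10 (limma adjusted p = 0.166), and their difference passed at 0.47 ± 0.12 (limma adjusted p = 0.0368). The other gene of this list to pass that test, Ctsa, a lysosomal carboxypeptidase that can trim angiotensin peptides, had a value of 1.46 ± 0.34 (limma adjusted p = 0.0294). That test was passed by 7.37% of all probes. Ctsa differed between genotypes by 0.85 ± 0.22 in femur (limma adjusted p = 0.173) and by -0.61 ± 0.24 in fat (limma adjusted p = 0.162). Prcp, another carboxypeptidase of angiotensin II, differed by -0.43 ± 0.18 in fat (limma adjusted p = 0.173), and Nln, a peptidase of the pathway, by -0.0013 ± 0.083 there. Ctsg, a protease of granulocytes that can release angiotensin II, differed by 0.50 ± 0.16 in femur (limma adjusted p = 0.207). Beside it, the granulocyte sum was 114870 to 126361 in wild-type femur and 127380 to 138419 in mutant femur, and its part was not tested.

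In the natriuretic list, 14 of 15 further genes were on the array and 8 were tested in each tissue, with 0 called by limma between genotypes. In femur 0 were higher and 2 lower at an unadjusted p under 0.05, and in fat 1 was higher and 1 lower. That level was reached by 16.9% of all probes in femur and 26.1% in fat. The genes of the ligands, Nppa, Nppb and Nppc, were at or below 16 on all 16 arrays. Npr3, the clearance receptor that removes natriuretic peptides, had intensities of 8813, 8480.1, 8919 and 7551 in wild-type fat and 7755, 7305, 5911 and 5528 in mutant fat. In femur Npr3 was at 31.5 to 57.3 over all 8 arrays. Femur minus fat was -7.55 ± 0.19 for Npr3 in the wild type (limma adjusted p = 1.44e-14), while mutant fat differed from wild-type fat by -0.36 ± 0.13 (limma adjusted p = 0.142). Pde2a, a phosphodiesterase stimulated by cyclic GMP, differed between genotypes by -0.30 ± 0.12 in femur (limma adjusted p = 0.258) and by 0.41 ± 0.17 in fat (limma adjusted p = 0.173). Furin and Ide, a processing and a degrading enzyme of these peptides, differed by 0.05 ± 0.10 and -0.07 ± 0.10 in femur and by -0.02 ± 0.10 and -0.12 ± 0.08 in fat.

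In the adrenomedullin list, 10 of 12 further genes were on the array, with 5 tested in femur and 6 in fat and 0 called by limma between genotypes. At an unadjusted p under 0.05 the count was 0 in femur and 1 higher in fat, where 16.9% and 26.1% of all probes reached that level. Ramp1, which turns the Calcrl receptor toward calcitonin gene-related peptide, went the opposite way from Ramp2 between tissues. Its intensity was 945, 936, 893 and 1019 in wild-type femur and 85.7, 146, 111 and 143 in wild-type fat, so Ramp1 was higher in femur by 3.00 ± 0.18 (limma adjusted p = 3.66e-10). In the mutants Ramp1 was higher in femur by 3.08 ± 0.18 (limma adjusted p = 2.64e-10). Crcp, a protein that couples these receptors to signalling, differed between genotypes by 0.04 ± 0.10 in femur and -0.17 ± 0.10 in fat. Gpr182, an orphan receptor once assigned to adrenomedullin, differed by 0.11 ± 0.12 in fat on its brightest probe. Pam, the enzyme that amidates adrenomedullin, was at 29.9, 27.9, 21.5 and 28.4 in wild-type fat and at 54.8, 31.1, 57.5 and 62.8 in mutant fat. Every mutant array of Pam lay above every wild-type array there, at 0.90 ± 0.22 (limma adjusted p = 0.112), and the femur value was -0.12 ± 0.29. Of all probes in fat, 15.7% did not overlap between genotypes. Calcr and Iapp, the genes of the calcitonin receptor and of amylin, were at or below 16 on all arrays.

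**Figure D5:**
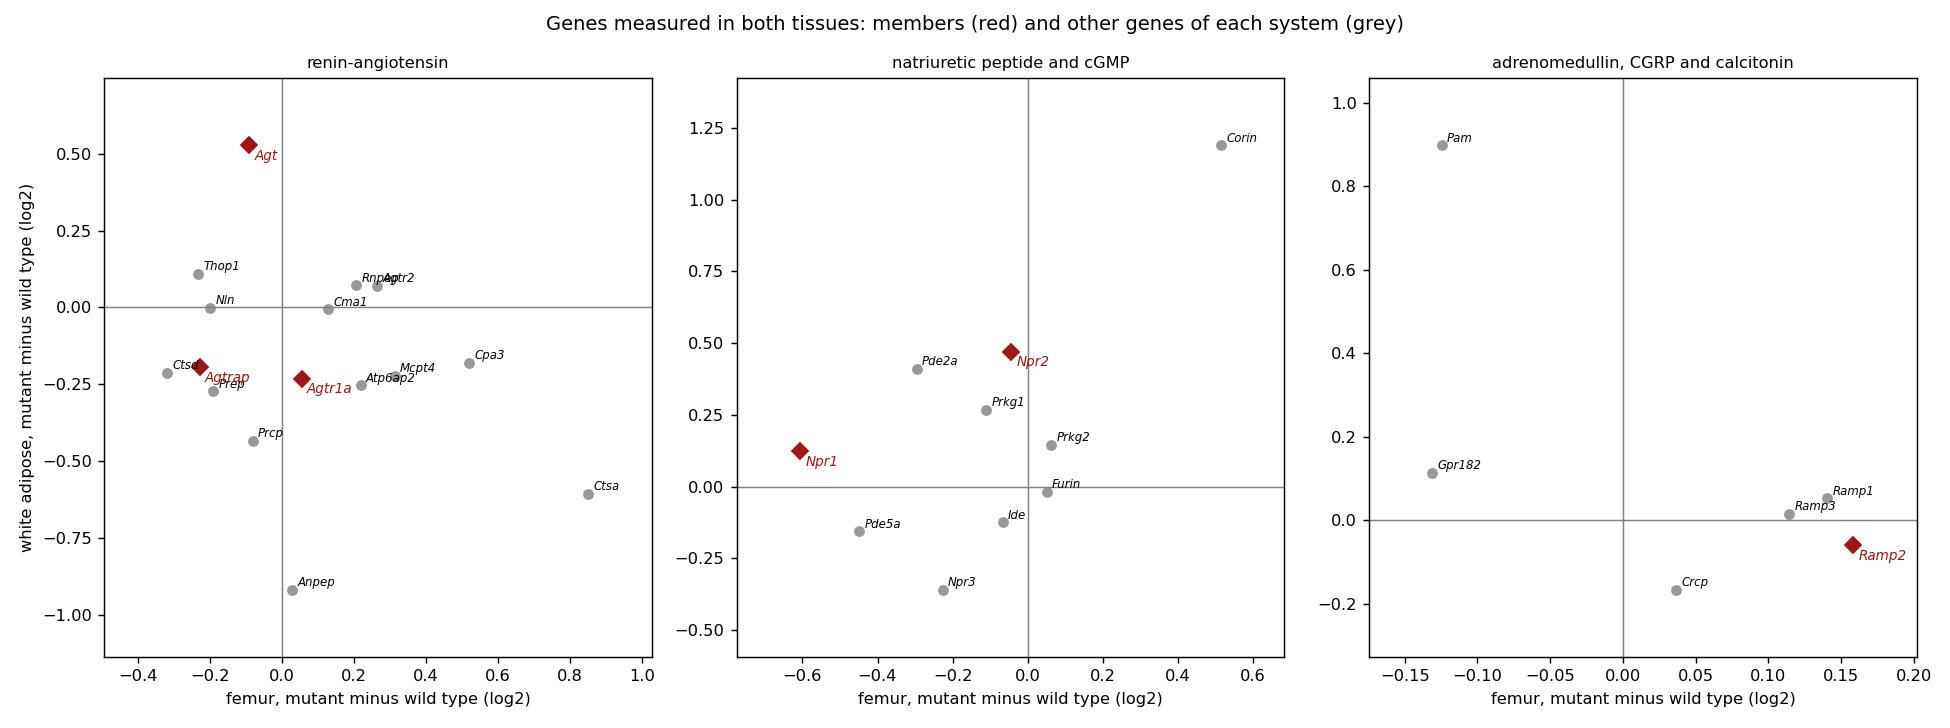
Log2 difference of mutants from the wild type in femur (horizontal) and white adipose tissue (vertical) for genes tested in both, with members in red, other genes of each system in grey, and a separate scale for each panel. Pam, Corin and Agt lie high in the fat direction and Ctsa and Anpep low, none passing the limma threshold in either tissue.

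Genes with the most similar pattern over the 16 arrays were found for the 7 members whose log2 SD was at least 0.5, by the root-mean-square difference of centred log2 values. Eci3 (0.204) and Smoc1 (0.216) lay nearest to Agt, against a median over all genes of 1.77. Mutyh (0.246) and Mecom (0.270) lay nearest to the first probe of Ace, against a median of 0.851. The nearest genes were Hdgf (0.131) for Agtr1a, Rabep1 (0.232) for Npr1, Lgals4 (0.156) for Npr2, Stard8 (0.144) for Adm and Atpaf2 (0.105) for Ramp2. All these distances are over the same 16 arrays, which share the contrast between tissues.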

How the data were processed

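RNA of both tissues of each mouse was extracted with Trizol and columns and made into biotinylated cRNA, per the labels' protocols. The deposited intensity values are on a linear scale, and the submitters' processing notes name GenomeStudio 2011.1. How the authors subtracted background and normalized is not given in the sources used here, but the values are as after quantile normalization over both tissues. Sorted values of the arrays differed by at most 0.797. A table of non-normalized signals was not used, because its 16 signal columns match no sample label.

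Intensities were raised to a floor of 16 and taken to log2. A probe was tested if above 16 on at least 4 arrays of the fit. Genes were named from the platform annotation, in which 23978 probes had 1 gene, 0 several and 1719 none. Genotypes were compared within each tissue (8 arrays) and tissues in 1 fit of 16 arrays with limma 3.58.1 (lmFit, eBayes) in R 4.3.3, two-sided, Benjamini-Hochberg adjusted over all tested probes at 0.05. Genes beyond the members were given by their brightest probe in the fit. Single probes were also compared with a two-sided exact permutation test over 70 relabelings of the arrays of a tissue. Calling was tested on simulated data. The number of arrays limits the precision. The limma p-values rest on the spread between arrays within groups, pooled over the groups of a fit and drawn toward a value common to all probes. Arrays at the floor add no spread.

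The members and gene lists were chosen with earlier results of these data known. Named besides the members were the genes of the 3 lists that pass a genotype test, up to 3 of highest intensity per list and tissue, and the 2 nearest by pattern, of which 1 is printed for some members. Ctsa, Pam, Corin, Anpep, the ligand genes, Calcr, Iapp and the marker genes given singly were named after their values were seen. Femur and fat arrays with the same number come from the same mouse per the labels' identifiers. Their deviations from group means correlated from -0.237 to 0.0340, so the main fit has no animal block and the blocked fit was an alternative. Other alternatives changed the dim-probe filter, the floor, the log scale, renormalization, limma's variance model or weights, and how probes were joined, or left out each array. Sequences are from RefSeq on GRCm38.p6.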

Additional observations from a re-analysis of the deposited data

Results flagged for a closer look

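Ace passed the test that compares its genotype difference between femur and fat, with a femur minus fat value of 1.23 on the first probe and 1.10 on the second. All 8 femur arrays were at the floor, so no femur difference was measured and the value repeats the fat difference with its sign turned. It does not show that the tissues differ in this respect. In 31 combinations of member probe and group tested for a single array far from the other 3, 0 had one.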

How the results depend on the processing

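Each comparison was recomputed under 20 to 27 alternatives. The count of members called between genotypes stayed 0 in femur under all 21, and in fat under all but 1: the fit of all 16 arrays called 2, Ace and Adm, with a spread lowered by femur arrays at the floor. The Ace difference in fat ranged from -1.39 to -0.87 over its 20 alternatives (limma adjusted p 0.00623 to 0.260). With only probes above 32 on every array, 5 members were left and called between tissues in each genotype and 0 passed the difference between tissues. That difference called 2 members with a floor of 32, where Adm was at 0.45 (limma adjusted p = 0.0483), and 0 to 2 when 1 array was left out. It was 0 without fat AEA001 replicate 4 or femur wild type replicate 1 or 2, and 2 without fat wild type replicate 3 or fat AEA001 replicate 1. At a floor of 32 every femur array of Adm sits at the floor and cannot vary, so no femur difference of Adm was measured there.

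Values near 0 changed sign. Agt in femur ranged from -0.21 to 0.021 when 1 array was left out and was 0.0024 without both mice of 1 identifier. Agtr1a in femur ranged from -0.033 to 0.19 and Npr2 in femur from -0.11 to 0.039. The tissue difference of the Agtrap genotype value ranged from -0.098 to 0.037 and was 0.0060 with array weights. The cause of these changes was not tested.

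With replicate number as a fixed term, the number of members called between genotypes was 0 in femur and 0 in fat (Ace limma adjusted p = 0.0705). With the animal as a random block, it was 8 between tissues in each genotype. Ace then passed the difference between tissues (limma adjusted p = 0.0306). Neither kind of block changed a call of a member. Wild-type and mutant arrays share only a number, with deviations correlating from -0.0724 to 0.0516 in femur and from -0.0503 to 0.318 in fat.

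Over all probes, the count called between genotypes in femur was 1. It was 2 with no filter, 0 with the stricter filter, 4 with a floor of 32, 0 on the offset scale, 3 with a variance trend, 2 with array weights, 0 with the replicate block, 2 with a floor of 8, 152 in the fit of 16 arrays and 0 with probes averaged per gene. It ranged from 0 to 710 when 1 array was left out, 710 being without wild type replicate 3, and was 439 without both mice of 1 identifier. In fat the count was 2. It was 0 with no filter, 0 with the stricter filter, 11 with a floor of 32, 0 on the offset scale, 7 with a variance trend, 0 with the replicate block, 0 with a floor of 8, 914 in the fit of 16 arrays, 1 with probes averaged, 0 when any 1 array was left out and 0 without both mice of 1 identifier. Between tissues the stricter filter gave 7658 probes in the wild type and 7521 in the mutants. For the difference between tissues, 1178 probes passed, against 343 with no filter, 2456 with array weights, 777 with probes averaged, 85 to 2253 when 1 array was left out (85 without fat AEA001 replicate 4, 2253 without femur wild type replicate 3) and 1888 without both mice of 1 identifier. The floor of 8 was added after the values were seen. Signal over background limits Ace and Adm in femur, Npr1 in mutant femur, and Calcrl throughout.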
